A study of Mus musculus with 28 samples.

Results

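Purinergic receptors and a few receptors for related nucleotides and lipids were followed across all 28 libraries of mouse primary microglia. The 10 genes were taken by symbol from the count tables: the P2Y receptors P2ry12, P2ry13 and P2ry6, the P2X channels P2rx4 and P2rx7, the ectonucleotidase Entpd1, the adenosine receptors Adora2b and Adora3, the lysophosphatidylserine receptor Gpr34 and the medium-chain fatty acid receptor Gpr84. All 10 were listed, each in a single row, among 29066 entries with a count in some library, and all 10 passed the low-count filter in each main fit. The rule uses symbols only, but the 10 genes were chosen with earlier results of these data known. Counts of called members beside the share of all genes are therefore a description.

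Microglia sense extracellular ATP, ADP, UDP and adenosine through these receptors, and the set of receptors on a microglial cell differs between its resting, phagocytic and inflammatory states. P2ry12 is a widely used marker of resting microglia and guides process movement toward ADP, while P2rx7 is the ATP-gated channel that feeds the NLRP3 inflammasome. Entpd1 (CD39) removes phosphates from ATP and ADP at the cell surface, which is the first step toward adenosine.

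The cells carried APOE3 (genotype label WT) or APOE3S/S, the Christchurch allele with the R136S change (genotype label Christchurch), and were left untreated (treatment label Control) or given tau or amyloid. There were 6 untreated and 6 tau APOE3 libraries, 4 untreated and 6 tau APOE3S/S libraries, and 3 amyloid libraries of each genotype. The labels give no age, dose or duration and do not say whether libraries came from separate mice or cultures, and p-values therefore cover only how much these libraries vary, which may be technical. A point change in Apoe cannot be read from gene counts, so the genotype labels were not checked.

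Libraries held 14.5 to 27.2 M counts. Titles fall into 2 naming series, one ending in SAN (17 libraries, all 3 treatments) and a second one (11 libraries, untreated and tau), and replicates are numbered in accession order within a group. The microglial marker Csf1r was at 2018 to 3332 counts per M counts of the library (CPM) in every library. The endothelial and granulocyte markers Cldn5 and S100a9 were at 0, while others of their lists were counted. The endothelial markers Flt1 and Pecam1 were at 24.7 to 69.4 and 0.0691 to 3.27 CPM. The granulocyte markers S100a8 and Ly6g were at 2.30 to 21.5 and 0 to 0.0626 CPM. Tmem119, a marker of microglia in the intact brain, was at 0.91 to 5.83 CPM, and the macrophage marker Mrc1 was at 348 to 891 CPM. Summed over 8 markers of border-associated macrophages and monocytes, untreated APOE3 libraries held 1161 to 2628 CPM and tau APOE3 libraries 1178 to 2902 CPM, with Cd209a at 0 throughout. In the SAN series 1 of these markers, Ly6c2, was at 2.96 to 8.23 CPM in untreated and 135 to 174 CPM in tau APOE3 libraries. Ly6c2 was also at 36.0 to 54.6 CPM in APOE3 and 59.2 to 140 CPM in APOE3S/S amyloid libraries, and at 3.34 and 73.2 CPM in the 2 SAN untreated APOE3S/S libraries. Its part in the results below was not tested. In bulk samples, fewer cells of a type and less RNA per cell cannot be told apart. APOE3S/S untreated replicates 1 and 2 of the SAN series were the least alike pair within a group and series, with a Pearson r of 0.970 across genes.

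**Figure D1:**
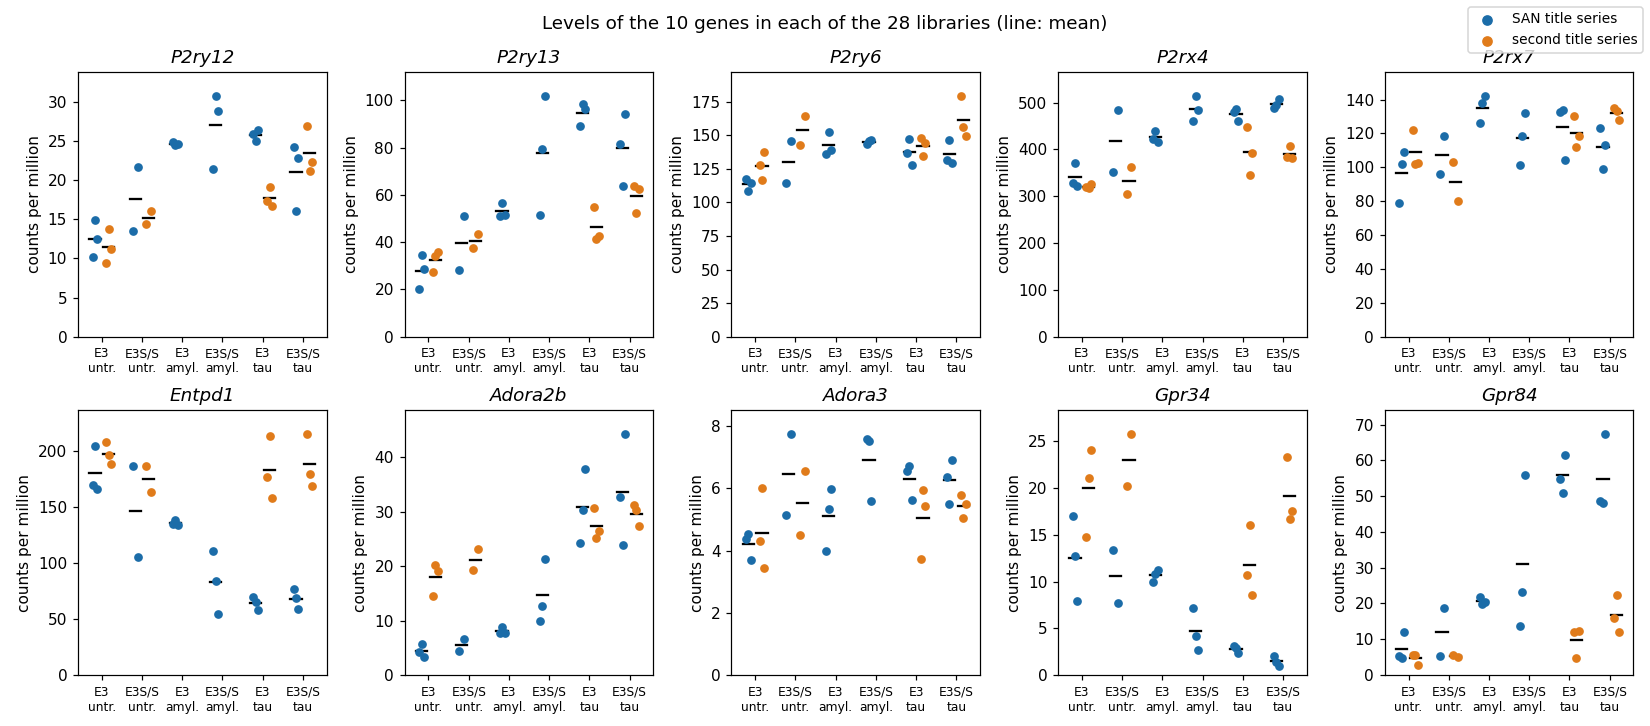
CPM of each gene (vertical axis, from 0) in the 28 libraries, by genotype (E3 for APOE3, E3S/S for APOE3S/S) and treatment (untr., untreated; amyl., amyloid), with 1 point a library, coloured by title series, and the mean of each series as a line. In the SAN series the 3 APOE3 tau libraries lie above the 3 untreated ones for P2ry12, P2ry13, P2ry6, P2rx4, Adora2b, Adora3 and Gpr84. They lie below the untreated ones for Entpd1 and Gpr34, and overlap them for P2rx7.

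The first question was how tau changed these receptors in APOE3 microglia. With tau, 9 of the 10 genes differed from untreated cells, 7 higher and 2 lower, where 14.8% of the 13905 genes tested were called (8.98% higher and 5.87% lower). The largest rises were those of the fatty acid receptor gene Gpr84 (4.29-fold), the adenosine receptor gene Adora2b (3.04-fold) and the ADP receptor genes P2ry13 (2.29-fold) and P2ry12 (1.85-fold). The lysophosphatidylserine receptor Gpr34 fell to 0.36 and the ectonucleotidase Entpd1 to 0.586 of the untreated level. These folds are over both title series, and those of Entpd1, Adora2b and P2ry13 differed between the series, as tested below. Entpd1 was at 0.375 of untreated in the SAN and 0.93 in the second series. Adora2b was at 7.28- and 1.54-fold and P2ry13 at 3.6- and 1.44-fold, in the same order. The median size of the log2 fold change was 0.83 over the 10 genes and 0.17 over all genes tested. Values written with ± are standard errors of the log2 fold change from edgeR's quasi-likelihood fit, except beside a mean CPM, where they are SDs. The tau contrasts have a term for title series, and the amyloid contrasts, within the SAN series, have none. Adjusted p-values are Benjamini-Hochberg adjusted over all genes tested, with a call under 0.05.

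P2ry12 and P2ry13, Gi-coupled receptors for ADP, are neighbouring genes on the minus strand of chromosome 3 (GRCm38, GENCODE M21): P2ry13 at chr3:59207892-59210882 and P2ry12 at chr3:59216272-59262871, 5.39 kb apart and both inside the plus-strand gene Med12l. P2ry12 stood at 10.2, 14.9 and 12.4 CPM in the SAN and 9.38, 13.7 and 11.3 CPM in the second untreated APOE3 libraries. With tau it reached 25.9, 25.1 and 26.4 CPM in the SAN and 17.4, 19.1 and 16.7 CPM in the second libraries. Every tau library lay above every untreated one, and the log2 fold change was 0.89 ± 0.15 (adjusted p = 4e-04).

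P2ry13 stood at 20.1, 34.7 and 28.4 CPM in the SAN and 27.3, 34.3 and 36.0 CPM in the second untreated libraries. With tau it was at 89.3, 98.4 and 96.4 CPM in the SAN and 54.8, 41.5 and 42.4 CPM in the second libraries. The groups did not overlap, and the SAN tau libraries stood well above the second ones. The log2 fold change was 1.20 ± 0.21 (adjusted p = 0.00069). The Med12l exons overlap those of P2ry12 on the opposite strand, and whether counting used the strand is not given in the sources used here. Med12l itself held 3 to 64 counts a library, so reads assigned to it were few beside the 179 to 607 counts of P2ry12.

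The sequences before the starts of 4 genes are shown because P2ry12 and P2ry13 are neighbours that rose together, Adora2b had the second largest rise of the 10 genes, and Entpd1 fell. They are the 250 bases before the RefSeq start (build GRCm38.p6), 5′ to 3′ on the gene's own strand, in lower case. Capitals mark matches, on either strand, to the PU.1 core GAGGAA, the interferon-stimulated response element, the AP-1 site TGANTCA or the NF-kB consensus. RefSeq promoter entries matched 8 of the 10 symbols, without P2ry6 and Gpr34.
P2ry12, chr3:59262986-59263235, minus strand: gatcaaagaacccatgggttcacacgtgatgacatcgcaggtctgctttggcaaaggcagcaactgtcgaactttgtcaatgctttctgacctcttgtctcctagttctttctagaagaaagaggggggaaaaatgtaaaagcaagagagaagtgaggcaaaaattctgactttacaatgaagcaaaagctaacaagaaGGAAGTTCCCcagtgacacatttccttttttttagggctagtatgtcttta
P2ry13, chr3:59210883-59211132, minus strand: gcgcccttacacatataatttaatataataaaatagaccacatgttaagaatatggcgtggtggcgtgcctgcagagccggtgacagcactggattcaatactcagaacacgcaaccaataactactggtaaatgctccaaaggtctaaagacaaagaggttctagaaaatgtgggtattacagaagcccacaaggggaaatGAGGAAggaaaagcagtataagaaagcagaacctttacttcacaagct
Adora2b, chr11:62248734-62248983, plus strand: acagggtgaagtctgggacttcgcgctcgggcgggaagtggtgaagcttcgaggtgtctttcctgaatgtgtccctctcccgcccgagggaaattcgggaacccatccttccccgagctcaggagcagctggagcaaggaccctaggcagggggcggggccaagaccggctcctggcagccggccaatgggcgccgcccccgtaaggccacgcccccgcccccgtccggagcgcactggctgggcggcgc
Entpd1, chr19:40612116-40612365, plus strand: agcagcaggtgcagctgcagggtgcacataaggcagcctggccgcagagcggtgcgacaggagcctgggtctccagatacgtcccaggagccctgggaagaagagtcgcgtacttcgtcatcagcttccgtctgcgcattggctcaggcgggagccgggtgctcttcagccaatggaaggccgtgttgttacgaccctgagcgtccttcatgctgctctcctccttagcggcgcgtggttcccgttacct
The P2ry12 window held 1 match to the NF-kB consensus and the P2ry13 window 1 PU.1 core, and the motifs' letters did not overlap there. The Adora2b window and the Entpd1 window shown held no match to these letters. RefSeq gives Entpd1 a second, internal start, whose window (chr19:40659520-40659769, not shown) held 2 PU.1 cores. Among all 32851 RefSeq promoter windows of 250 bases, 23.3% held the PU.1 core, 2.98% the interferon-stimulated response element, 6.75% the AP-1 site and 7.25% the NF-kB consensus.

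The same stretch of chromosome 3 holds further P2Y-like receptors, read beside these 2 genes. P2ry14, the UDP-glucose receptor at chr3:59113855-59153618, rose by 1.57 ± 0.19 (log2, adjusted p = 5e-05) with tau in APOE3 cells. P2ry14 averaged 34.5 ± 4.46 CPM (SD, n = 3) in SAN untreated and 122 ± 11.4 CPM in SAN tau libraries, and 15.6 ± 2.69 and 36.5 ± 10.2 CPM in the second series. Gpr171 was called as well, at 1.69 ± 0.56 (adjusted p = 0.046), but only 0 to 1.44 CPM were counted in any library. The host gene Med12l was at 0.171 to 3.06 CPM and was not called (1.04 ± 0.42, adjusted p = 0.10). P2ry1, another ADP receptor, lies 1.74 Mb from P2ry12 and fell by 1.25 ± 0.22 (log2, adjusted p = 0.00067). It averaged 7.36 CPM in SAN untreated and 1.86 CPM in SAN tau libraries, and 8.73 and 5.53 CPM in the second series. In the second series its untreated (6.84 to 10.6 CPM) and tau (3.89 to 6.99 CPM) libraries overlapped.

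**Figure D2:**
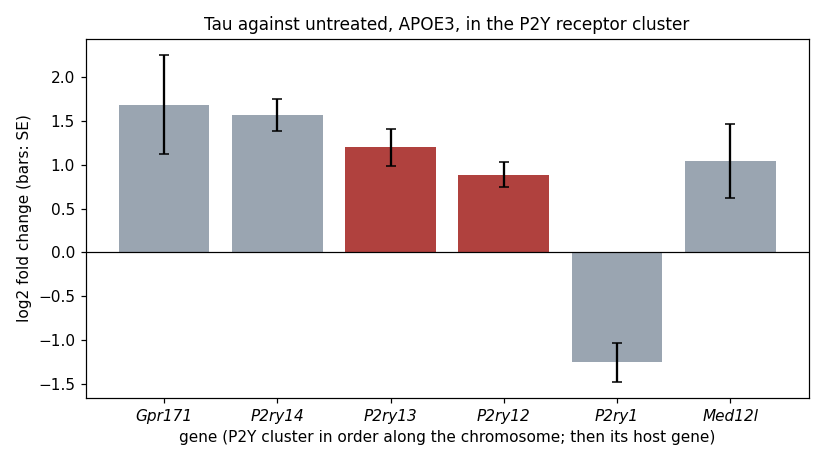
Log2 fold change of tau against untreated APOE3 cells (vertical axis; bars are standard errors) for P2Y-like receptor genes of chromosome 3 in positional order, then Med12l, with P2ry12 and P2ry13 in red. Med12l spans the receptor genes shown except P2ry1, which lies 1.74 Mb from P2ry12. P2ry14, P2ry13 and P2ry12 lie at 1.57, 1.20 and 0.89, while P2ry1 lies at -1.25.

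P2ry6, a Gq-coupled receptor for UDP known for its role in microglial phagocytosis, lies at chr7:100937630-100974649 on the minus strand. Untreated APOE3 libraries ranged from 109 to 137 CPM (median 117) and tau libraries from 128 to 148 CPM (median 140.5), so the groups overlapped. The log2 fold change was small, 0.26 ± 0.08 (adjusted p = 0.035), and the call was lost when any of 7 of the 12 APOE3 libraries was left out (adjusted p up to 0.10).

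The ATP-gated cation channels P2rx7 (chr5:122643911-122691432) and P2rx4 (chr5:122707544-122729738) are neighbours on the plus strand of chromosome 5, 16.1 kb apart. P2rx4, the channel linked to microglial responses in pain, ranged from 317 to 371 CPM (median 324) in untreated and from 345 to 485 CPM (median 454) in tau libraries. Only tau replicate 2, of the second series, fell within the untreated range, and the log2 fold change was 0.43 ± 0.09 (adjusted p = 0.0031). P2rx7 ranged from 78.8 to 122 CPM (median 102) in untreated and from 104 to 134 CPM (median 124) in tau libraries. The groups overlapped, and the log2 fold change of 0.29 ± 0.10 (adjusted p = 0.047) was no longer called without any of 9 of the 12 libraries (adjusted p up to 0.13). The next gene, Camkk2, whose 3′ end faces that of P2rx4 without overlap, rose by 0.53 ± 0.10 (log2, adjusted p = 0.00076).

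Entpd1 lies at chr19:40612366-40741602 on the plus strand. It stood at 170, 204 and 166 CPM in the SAN and 208, 197 and 189 CPM in the second untreated libraries. With tau it was at 69.3, 65.6 and 58.4 CPM in the SAN but 177, 214 and 158 CPM in the second libraries. The SAN tau libraries lay far below all others, and the second-series tau libraries overlapped the untreated ones. Over both series the log2 fold change was -0.77 ± 0.21 (adjusted p = 0.013).

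Adora2b, the low-affinity Gs-coupled adenosine receptor, lies at chr11:62248984-62266453 on the plus strand. It was at 4.32, 5.63 and 3.36 CPM in the SAN and 14.5, 20.2 and 19.1 CPM in the second untreated libraries. Tau libraries of both series reached a similar range, 24.3, 30.3 and 37.8 CPM in the SAN and 30.7, 25.1 and 26.5 CPM in the second. Every tau library exceeded every untreated one, and the untreated level differed between the series. The log2 fold change over both series was 1.61 ± 0.36 (adjusted p = 0.004).

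Adora3, a Gi-coupled adenosine receptor at chr3:105870858-105908926, was the member that was not called. It ranged from 3.44 to 6.00 CPM (median 4.34) in untreated and from 3.74 to 6.71 CPM (median 5.79) in tau libraries, with a log2 fold change of 0.38 ± 0.16 (adjusted p = 0.13). Its exons overlap those of Tmigd3 on the same strand, so reads there could be assigned to either, and Tmigd3 held at most 7 counts in a library.

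Gpr34, the receptor for lysophosphatidylserine, lies at chrX:13632089-13640858 inside Cask, which is on the opposite strand, without overlapping its exons. It was at 17.0, 12.7 and 7.97 CPM in the SAN and 14.8, 21.1 and 24.1 CPM in the second untreated libraries. With tau it fell to 3.14, 2.88 and 2.34 CPM in the SAN, and stood at 10.7, 16.0 and 8.56 CPM in the second libraries. The SAN tau libraries lay below all untreated ones and those of the second series overlapped them. The log2 fold change was -1.47 ± 0.38 (adjusted p = 0.0097), while Cask was not called (0.29 ± 0.11, adjusted p = 0.079).

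Gpr84, a Gi-coupled receptor for medium-chain fatty acids known to be induced in inflammatory myeloid cells, lies at chr15:103308235-103310612 on the minus strand. It was at 5.34, 4.88 and 11.9 CPM in the SAN and 5.49, 5.74 and 2.69 CPM in the second untreated libraries. Tau libraries stood at 54.9, 51.0 and 61.4 CPM in the SAN and 12.0, 4.80 and 12.4 CPM in the second series. Tau replicate 2, of the second series, lay within the untreated range. The antisense gene Gm49482, whose exons overlap those of Gpr84, held at most 5 counts in a library. The log2 fold change of Gpr84 was 2.10 ± 0.36 (adjusted p = 0.00056), the largest of the 10 genes.

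The calls for P2ry12, P2ry13, P2rx4 and Gpr84 were kept without the series term in the fit, and those of the other 5 genes were lost. When the second series was fitted alone, P2ry12 (adjusted p = 0.044) and Adora2b (adjusted p = 0.042) were called. In the fit of both series with a term for each group and series, their second-series effects were not called (adjusted p = 0.11 and 0.2).

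The size of the tau response was therefore compared between the title series. In a fit with a term for each group and series, the tau effect on P2ry13, Adora2b and Entpd1 was larger in the SAN series in APOE3 cells, 3 of 10 genes where 5.62% of all genes were called. In APOE3S/S cells the tau effect on Adora2b, Gpr34 and Entpd1 differed in the same direction, 3 of 10 genes against 0.949% of all genes. The labels give the series only as title text, so what differed between them cannot be read from the sources used here.

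The tau effect on Adora2b in APOE3 cells was 2.87 ± 0.25 (log2, adjusted p = 9.3e-07) in the SAN and 0.63 ± 0.22 (adjusted p = 0.2) in the second series, a difference of 2.24 ± 0.33 (adjusted p = 0.0011). Its values with APOE3S/S were 2.67 ± 0.29 and 0.43 ± 0.25, a difference of 2.23 ± 0.37 (adjusted p = 0.01), a call lost without untreated replicate 1 (adjusted p = 0.085). For this gene the series differed in the untreated cells, at 4.44 ± 1.14 CPM in the SAN and 17.9 ± 3.06 CPM in the second untreated APOE3 libraries (SD, n = 3 each), more than in the tau cells, at 30.8 ± 6.77 and 27.4 ± 2.93 CPM.

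Entpd1 showed the reverse arrangement, with similar untreated means (180.2 ± 21.1 and 198 ± 9.55 CPM, SD) and separate tau means (64.4 ± 5.54 and 183 ± 28.3 CPM, SD) in APOE3 cells. Its tau effect was -1.42 ± 0.15 in the SAN and -0.10 ± 0.15 in the second series, a difference of -1.31 ± 0.21 (adjusted p = 0.0017). With APOE3S/S the effects were -1.04 ± 0.17 and 0.06 ± 0.17, a difference of -1.09 ± 0.24 (adjusted p = 0.034). That last call was lost without any of 6 of the 10 APOE3S/S libraries (adjusted p up to 0.20).

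For P2ry13 the tau effect in APOE3 cells was 1.85 ± 0.22 in the SAN and 0.52 ± 0.21 in the second series, a difference of 1.33 ± 0.30 (adjusted p = 0.013). Gpr34 differed between the series in APOE3S/S cells, at -2.78 ± 0.37 and -0.32 ± 0.30 (difference -2.47 ± 0.49, adjusted p = 0.018), a call lost without any of 4 of the 10 libraries (adjusted p up to 0.12) and by limma-voom (adjusted p = 0.059). In APOE3 cells its difference of -1.34 ± 0.42 was not called (adjusted p = 0.067). P2ry12 was at 1.12 ± 0.19 in the SAN and 0.63 ± 0.19 in the second series in APOE3 cells, and its difference of 0.49 ± 0.26 was not called (adjusted p = 0.34). Gpr84 was at 3.00 ± 0.42 and 1.08 ± 0.42 in APOE3 cells, also not called as a difference (1.92 ± 0.59, adjusted p = 0.062).

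**Figure D3:**
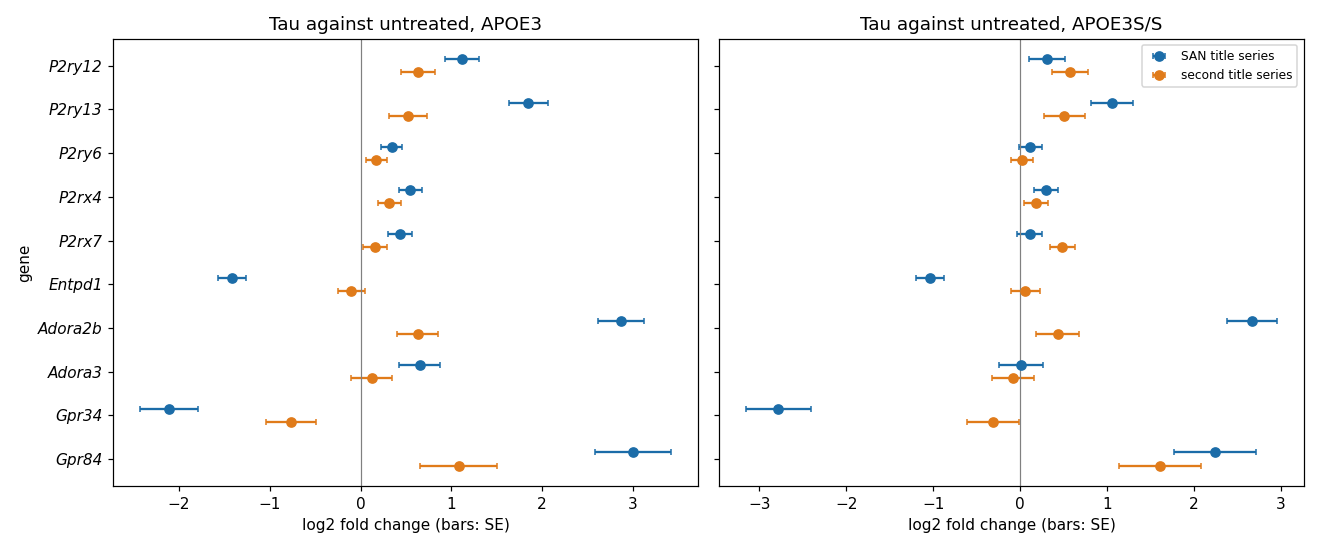
Log2 fold change of tau against untreated cells (horizontal axis; bars are standard errors) for each gene, in APOE3 (left) and APOE3S/S cells (right), by title series. Adora2b lies near 2.87 and 2.67 in the SAN series and at 0.63 and 0.43 in the second, and Entpd1 at -1.42 and -1.04 in the SAN and close to 0 in the second.

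The next question was whether the Christchurch allele changed the response to tau. In APOE3S/S cells Gpr84 was the 1 member called with tau by edgeR, higher by 1.93 ± 0.40 (log2, adjusted p = 0.015), where 3.28% of all genes were called and 2.14% were higher. With Gpr84, 8 members had an unadjusted p under 0.05, beside 2714 of the 13905 genes tested. DESeq2 called 3 members, limma-voom 2 and the SAN series alone 5, and without the series term the Gpr84 call was lost (adjusted p = 0.23). Shares of all genes called under these alternatives are not given here. The direction was that of APOE3 cells for 9 of the 10 genes, and Adora3 stood near no change (-0.03 ± 0.18).

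Gpr84 with APOE3S/S was at 5.38 and 18.7 CPM in the SAN and 5.48 and 5.07 CPM in the second untreated libraries. With tau it was at 48.7, 48.1 and 67.3 CPM in the SAN and 15.8, 22.3 and 11.9 CPM in the second libraries. Untreated replicate 2 overlapped the tau libraries of the second series. The Gpr84 call was lost without untreated replicate 1, the other SAN library (adjusted p = 0.069).

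The 2 ADP receptors were at 0.45 ± 0.16 (P2ry12, adjusted p = 0.12) and 0.77 ± 0.24 (P2ry13, adjusted p = 0.071), and Adora2b was at 1.43 ± 0.41 (adjusted p = 0.056). P2ry12 stood at 13.6, 21.6, 14.4 and 16.1 CPM in the 4 untreated and at 16.1 to 27.0 CPM (median 22.6) in the 6 tau APOE3S/S libraries, and the groups overlapped. Entpd1 was at 186, 106, 187 and 163 CPM untreated and ranged from 58.7 to 215 CPM with tau. Gpr34 was at 13.4, 7.74, 20.2 and 25.8 CPM untreated and ranged from 0.953 to 23.3 CPM with tau. For Entpd1 and Gpr34 the 3 SAN tau libraries held the 3 lowest values and the second-series tau libraries overlapped the untreated ones. In untreated replicate 2, P2ry12, P2ry13 (50.9 CPM), Gpr84, P2rx4 (485 CPM), P2rx7 (119 CPM) and Adora3 (7.74 CPM) were the highest of the 4 untreated APOE3S/S libraries. Entpd1 and Gpr34 were the lowest in the same library. Without that library 2 members were called with tau in place of 1.

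No member's tau effect was called as different between the genotypes (0 of 10, edgeR), and no gene was (0% of 13905). DESeq2 and limma-voom also called 0 members, and 0 members had an unadjusted p under 0.05, beside 284 of all genes. The closest were P2ry12, with a difference of -0.44 ± 0.22 (APOE3S/S minus APOE3, unadjusted p = 0.0552), and Adora3, at -0.41 ± 0.24 (unadjusted p = 0.098). For Gpr34 and Gpr84 the differences of 0.32 ± 0.55 and -0.17 ± 0.52 carry errors that leave a wide range of values possible.

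Between genotypes under the same treatment, 0 of 10 members were called in untreated cells (0.00719% of all genes) and 0 of 10 in tau cells (0.0144% of all genes), by edgeR, DESeq2 and limma-voom alike. In untreated cells 3 members had an unadjusted p under 0.05, beside 1077 of 13905 genes. Each had a higher value in APOE3S/S: P2ry12 (0.48 ± 0.16, adjusted p = 0.64), P2ry6 (0.27 ± 0.09, adjusted p = 0.64) and Adora3 (0.46 ± 0.18, adjusted p = 0.64). In tau cells 0 members had an unadjusted p under 0.05, beside 300 of 13905 genes. There the 10 differences lay between -0.02 and 0.27 with errors of 0.08 to 0.37.

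Amyloid was compared with untreated cells in the SAN series, which holds all amyloid libraries. Summed over 6 astrocyte markers, APOE3 amyloid libraries held 71.4 to 109.5 CPM and untreated APOE3 libraries of both series 30.4 to 61.0 CPM. APOE3S/S amyloid libraries held 74.8 to 101 CPM and untreated ones of both series 38.7 to 89.0 CPM. Over all 28 libraries Aldh1l1 and Aldoc had the highest medians of the 6, at 37.2 and 24.2 CPM. Gfap, Aqp4, Slc1a2 and Slc1a3 had medians of 0.561 to 2.26 CPM, so the sums mostly follow Aldh1l1 and Aldoc. The SAN untreated APOE3 libraries held 2.96 to 8.23 CPM of Ly6c2 against 36.0 to 54.6 CPM with amyloid. The part of Ly6c2 or of the astrocyte markers in these results was not tested. No member was called in APOE3 cells (0 of 10, edgeR), and no gene among 13867 was (0%). Here 7 members had an unadjusted p under 0.05, beside 1822 of the 13867 genes. DESeq2 called 2 members, P2ry12 and P2ry13, and limma-voom called 0. The share of all genes called by DESeq2 is not given here. In APOE3S/S cells 0 of 10 members were called by edgeR, DESeq2 and limma-voom (0% of all genes by edgeR). Of the 10, 6 had an unadjusted p under 0.05, beside 1181 of the 13867 genes.

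P2ry12 was at 24.9, 24.5 and 24.6 CPM in the 3 APOE3 amyloid libraries, above the 10.2 to 14.9 CPM of the 3 untreated ones, with a log2 fold change of 0.97 ± 0.20 (adjusted p = 0.21). P2ry13 was at 51.0, 56.6 and 51.7 CPM with amyloid, above the 20.1 to 34.7 CPM untreated (0.93 ± 0.28, adjusted p = 0.23). For these ADP receptors the groups did not overlap, yet the differences did not pass the adjustment over all genes.

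Gpr84 was at 21.8, 19.8 and 20.4 CPM in APOE3 amyloid libraries against 4.88 to 11.9 CPM untreated (1.49 ± 0.55, adjusted p = 0.29). Entpd1 was at 134, 138 and 134 CPM with amyloid against 166 to 204 CPM untreated (-0.42 ± 0.24, adjusted p = 0.47). Gpr34 was at 9.99, 10.8 and 11.3 CPM, inside the untreated range (-0.26 ± 0.34, adjusted p = 0.76).

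The APOE3S/S amyloid libraries were more spread. Gpr84 was at 13.8, 23.1 and 56.0 CPM in replicates 1, 2 and 3, P2ry13 at 51.5, 79.5 and 102 CPM, and Entpd1 at 111, 84.3 and 54.5 CPM. Replicate 3 held the highest Gpr84, P2ry13 and Adora2b and the lowest Entpd1 and Gpr34 of the 3. Adora2b was at 9.92, 12.8 and 21.3 CPM against 4.36 and 6.71 CPM untreated (1.45 ± 0.34, adjusted p = 0.58). Without untreated replicate 2, 3 members were called in APOE3S/S cells (P2ry12, P2ry13 and Adora2b), where the lone remaining untreated library is assumed to vary like the other groups.

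Between genotypes 0 of 10 members were called in amyloid cells by edgeR, DESeq2 and limma-voom (0% of all genes by edgeR). Of the 10, 5 had an unadjusted p under 0.05, beside 1673 of 13867 genes. Adora2b (0.94 ± 0.28), P2ry13 (0.63 ± 0.27) and Adora3 (0.53 ± 0.23) were higher and Gpr34 (-1.09 ± 0.36) and Entpd1 (-0.61 ± 0.24) lower in APOE3S/S by point estimate, at adjusted p of 0.38 to 0.40. The amyloid effect was not called as different between genotypes for any of the 10 members (0% of all genes, edgeR), nor by DESeq2 or limma-voom. At an unadjusted p under 0.05 there were 0 members, beside 514 of 13867 genes.

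Tau and amyloid were compared directly within the SAN series. With tau against amyloid in APOE3 cells, 5 of 10 members differed, 3 higher with tau and 2 lower, where 7.33% of 14131 genes were called (4.13% higher and 3.21% lower). Adora2b was 4.04-fold higher with tau (24.3 to 37.8 CPM against 7.72 to 8.83 CPM), a log2 difference of 2.01 ± 0.29 (adjusted p = 0.0044). Gpr84 was higher by 1.52 ± 0.44 (adjusted p = 0.048) and P2ry13 by 0.92 ± 0.25 (adjusted p = 0.035).

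Gpr34 was lower with tau by point and test (-1.84 ± 0.35, adjusted p = 0.0099), as was Entpd1 (-0.99 ± 0.21, adjusted p = 0.015), and for all 5 called genes the APOE3 tau and amyloid libraries did not overlap. P2ry12 did not differ detectably (0.15 ± 0.19, adjusted p = 0.68), with tau libraries at 25.1 to 26.4 CPM and amyloid libraries at 24.5 to 24.9 CPM. With 1 library fewer, the P2ry13 and Gpr84 calls were lost whichever of the 6 was left out, that of Entpd1 without any of 5 and that of Gpr34 without tau replicate 6 (adjusted p up to 0.13, 0.15, 0.09 and 0.072). The Adora2b call was kept in all 6 cases.

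With APOE3S/S, 0 of 10 members differed between tau and amyloid by edgeR (0.149% of all genes were called) and by limma-voom. Of the 10, 2 had an unadjusted p under 0.05, beside 1328 of 14131 genes, and DESeq2 called these 2, Gpr34 and Adora2b. Gpr34 was at 0.953 to 2.04 CPM with tau and 2.71 to 7.20 CPM with amyloid (-1.68 ± 0.39, adjusted p = 0.14). Adora2b was at 24.0 to 44.3 CPM with tau and 9.92 to 21.3 CPM with amyloid (1.21 ± 0.28, adjusted p = 0.14). Without APOE3S/S amyloid replicate 3, 3 members were called.

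**Figure D4:**
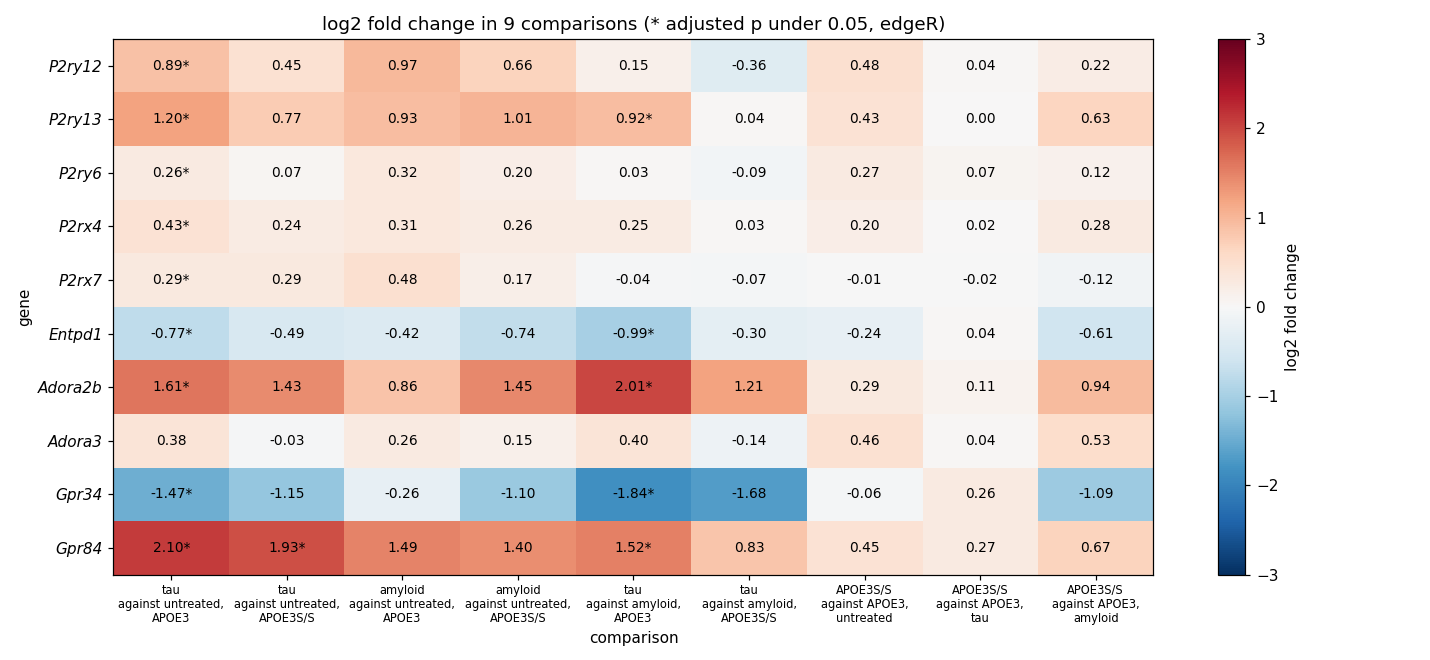
Log2 fold change of each gene (rows) in 9 comparisons (columns), printed in each cell and shown by colour from -3 (blue) to 3 (red), with a star at an adjusted p under 0.05. The column of tau in APOE3 cells holds 9 stars, that of tau in APOE3S/S cells 1 and that of tau against amyloid in APOE3 cells 5.

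Within the SAN series the order of the levels ran alike in several members. For Entpd1 in APOE3 cells the untreated libraries (166 to 204 CPM), the amyloid libraries (134 to 138 CPM) and the tau libraries (58.4 to 69.3 CPM) formed separate ranges. For Gpr84 and P2ry13 in APOE3 cells the order was the opposite, lowest untreated, then amyloid, then tau, again with separate ranges. Adora2b showed the same order as Gpr84, and among its 10 means of group and series only 3 adjoining pairs were apart by range. Gpr34 untreated and amyloid libraries overlapped in APOE3 cells, and its tau libraries stood apart below both.

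Other genes of nucleotide and lipid signalling were counted over 57 genes in 8 lists, of which 41 passed the filter in the tau fit. These lists too were chosen with earlier results of these data known. In APOE3 cells 16 of the 41 (39%) were called with tau, 10 higher and 6 lower, beside 14.8% of all genes, and their median log2 fold change was 0.03. Among P2Y receptors outside the 10 genes, 2 of 4 were called, P2ry14 and P2ry1, in opposite directions. The adenosine receptor Adora2a rose by 2.78 ± 0.51 (adjusted p = 0.00089), though its median was only 1.07 CPM. It was called in APOE3S/S cells too (2.73 ± 0.59, adjusted p = 0.017), with P2ry14 (0.95 ± 0.21, adjusted p = 0.018) and the leukotriene receptor Cysltr1 (0.65 ± 0.17, adjusted p = 0.039), 3 of 41 in all beside 3.28% of all genes.

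Among other enzymes that split nucleotides, 2 of 5 were called in APOE3 cells: Nt5e (CD73), which makes adenosine from AMP, rose by 1.33 ± 0.37 (adjusted p = 0.018), and Enpp1, which splits ATP and cGAMP, fell by 1.35 ± 0.28 (log2, adjusted p = 0.002). Both tau effects differed between the title series in APOE3 cells, Nt5e by -2.26 ± 0.58 (adjusted p = 0.026) and Enpp1 by -1.61 ± 0.28 (adjusted p = 0.0023), SAN minus second. Of 7 genes of adenosine breakdown and transport 3 were called. Pnp, purine nucleoside phosphorylase, rose by 1.32 ± 0.23 and the lysosomal nucleoside transporter gene Slc29a3 by 0.37 ± 0.11, while the plasma membrane transporter gene Slc29a1 fell by 0.31 ± 0.08 (log2).

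Of 5 genes of nucleotide release and coupled channels only Kcnk13, the microglial potassium channel THIK-1, was called, and it fell by 0.39 ± 0.08 (log2). Abhd12, which breaks down lysophosphatidylserine, the ligand of Gpr34, fell by 0.57 ± 0.13 (log2) and was 1 of 2 genes tested in that list. Among 15 other lipid and fatty acid receptors 5 rose and 1 fell. Of these, Cysltr1 rose by 0.93 ± 0.15, Gpr132 by 1.83 ± 0.49, and the oxysterol receptor Gpr183 fell by 1.57 ± 0.38 (log2). These are effects over both title series. In APOE3 cells the tau effect differed between the series for 10 of the 41 genes (24.4%), beside 5.62% of all genes. SAN minus second, 3 were higher and 7 lower. They included 1 of the 2 lysophosphatidylserine genes and 5 of the 15 lipid and fatty acid receptors. In the direct comparison of tau with amyloid in APOE3 cells, 10 of 42 (23.8%) were called, 7 higher with tau and 3 lower, beside 7.33% of all genes (4.13% higher and 3.21% lower).

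The 10 means of the 6 groups split by title series were used to describe which members followed each other. These means share libraries and depth, so the correlations of log2 CPM are a description. P2ry12 and P2ry13 had an r of 0.89, P2ry13 and Gpr84 0.91, and Gpr34 and Entpd1 0.94, while Gpr34 and Gpr84 had an r of -0.88. The r of P2ry6 was near 0 with Gpr34 (0.10) and Entpd1 (-0.02). Among 9747 genes, those most like Gpr84 over the 10 means were Filip1l (0.99), Il15ra (0.98) and Aoah (0.98). Those most like Gpr34 were Slco2b1, Cenpa and Rtn4rl1 (0.98 each), and those most like P2ry12 were Gm4951, Gbp8 and 1600014C10Rik (0.93 each).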

How the data were processed

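The deposited values were gene counts, whole numbers per gene that the authors had not normalised, in 2 tables of 22 and 11 libraries with 5 untreated libraries in both. Libraries were made with a 3′ tag kit (QuantSeq FWD, per the labels' protocols), so a count is a tag near a transcript's 3′ end and levels were not compared between genes. Per the submitters' processing notes the build was GRCm38 (mm10) and DESeq2 1.38.3 was used. For the aligner and the counting program, the tool is not given in the sources used here. Of the 60976 rows in each table, 6360 held no number, and 189 rows that repeated a symbol were left out, keeping the row with the highest total. Of 54427 entries, 29066 had a count. CPM is counts per M of the library total.

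Counts were filtered with filterByExpr by group, scaled by TMM, and then tested by quasi-likelihood F tests in edgeR 4.0.16 (R 4.3.3), with Benjamini-Hochberg adjustment over all genes and a threshold of 0.05. Tau contrasts used 22 libraries with a title series term, amyloid contrasts the 11 untreated and amyloid SAN libraries, and tau against amyloid all 17 SAN libraries. Standard errors are the fold change divided by the square root of F. The fit was tested on simulated data. Alternatives were RLE scaling, no filter, DESeq2 1.42.0, limma-voom (limma 3.58.1), each series alone, no series term, a replicate block, all 17 SAN libraries, and each library left out. The members and the gene lists were chosen with earlier results of these data known. All 10 members are named. Other pathway genes are named where called, at a mean of at least 1 CPM, at most 3 a list by smallest p, locus neighbours as set out beside a member, and for 3 members the 3 genes of highest r. Member counts ranged from 16 (Gpr34) to 11617 (P2rx4) a library. Title numbers are shared between genotypes, and same-numbered libraries' deviations correlated at -0.118 to 0.174, so no pairing was used. Counting errors cover these libraries only.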

Additional observations from a re-analysis of the deposited data

Results flagged for a closer look

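The tau effect differed between the title series for 6 results by a test of the difference itself (log2, SAN minus second). In APOE3 cells these were P2ry13 (1.33), Entpd1 (-1.31) and Adora2b (2.24). In APOE3S/S cells they were Gpr34 (-2.47), Entpd1 (-1.09) and Adora2b (2.23).

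Among 40 sets of 1 gene in 1 group of 4 or 6 libraries, 3 held a library set apart from the rest, and chance alone gives about 1 in 20. Gpr84 was at 18.7 CPM in APOE3S/S untreated replicate 2 and at 11.9 CPM in APOE3 untreated replicate 3. P2rx4 was at 371 CPM in APOE3 untreated replicate 2. All 3 libraries are of the SAN series.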

How the results depend on the processing

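No member of the 10 changed direction past the threshold under any alternative run, and RLE scaling moved the median of all genes by at most 0.013 (log2). With tau in APOE3 cells, 9 members called became 2 in the second series alone and 4 without the series term, with the causes not tested. They became 7 without the low-count filter, where P2ry6 and P2rx7 were lost, and 8 in the SAN series alone, where the same 2 genes were lost and Adora3 was gained. With tau in APOE3S/S cells, 1 became 6 without the low-count filter, 3 by DESeq2, 2 by limma-voom, 5 in the SAN series alone and 0 without the series term. Without the filter 0 became 2 for genotype in untreated cells, 5 for amyloid in APOE3, 6 for amyloid in APOE3S/S, 5 for genotype in amyloid cells and 3 for tau against amyloid in APOE3S/S, and for the tau effect by series in APOE3 3 became 5. By DESeq2 0 became 2 for amyloid in APOE3 and 2 for tau against amyloid in APOE3S/S, and 3 became 5 for the tau effect by series in APOE3. With all 17 SAN libraries in the fit, 0 became 1 for amyloid in APOE3. The cause of these shifts was not tested. The share of all genes called under each alternative, or with a library left out, is not given here. These member counts therefore cannot be set apart from a shift over all genes.

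Leaving out 1 library at a time gave 7 to 9 members called for tau in APOE3, 0 to 2 for tau in APOE3S/S, 0 to 3 for amyloid in APOE3S/S, 1 to 3 for tau against amyloid in APOE3, 0 to 3 in APOE3S/S, and 3 to 5 and 0 to 3 for the tau effect by series in APOE3 and APOE3S/S. With a replicate block on the title numbers, the genotype contrasts and the genotype differences of the tau and amyloid effects again called 0 members. Member counts went down to 16 in 1 library for Gpr34 and ran from 55 to 175 for Adora3, which limits the precision of both.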
